A study of Mus musculus with 4 samples.

Results

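The transcription factors that turn preadipocytes into fat cells were examined in 3T3-F442A adipocytes, a mouse cell line that differentiates into fat cells in culture. The members were 10 genes (Pparg, Rxra, Nr1h3, Cebpa, Cebpb, Cebpd, Klf15, Klf5, Ebf1 and Ebf2), chosen by name. That choice was made with earlier results of these data known, so counts of members beside all probe sets only describe them. The members were read through every probe set whose platform annotation names exactly 1 gene, that gene being a member. This gave 18 probe sets of 22626 on the array, with 1 to 3 per gene, and 10 genes of 12393 that the single-gene probe sets represent. The 2 groups of cells were compared with 2 arrays each. The first carried shTRPV4, a short hairpin RNA against the calcium-permeable channel gene Trpv4, and the second shGFP, a control hairpin. In both, the hairpin was delivered to preadipocytes by retrovirus overnight and infected cells were kept in puromycin (2 ug/ml) over 2 days. Both were then differentiated at confluence for 8 days with 850 nM insulin, and both received rosiglitazone, an agonist of the PPARγ protein that Pparg encodes, over the first 2 days. The labels do not say whether the selected cells were a pool or a clone, or whether the arrays of a group came from separate infections or cultures. The p-values therefore reflect no more than array-to-array spread, which could be technical.

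In fat cell differentiation, C/EBPβ and C/EBPδ are induced early and act upstream of PPARγ and C/EBPα. PPARγ binds DNA as a dimer with RXRα, and PPARγ and C/EBPα then maintain each other and switch on the genes of lipid storage. Krüppel-like factors and the EBF family act on this core: KLF5 is an early factor, KLF15 a late one, and EBF1 and EBF2 bind near many PPARγ sites. LXRα, encoded by Nr1h3, is an oxysterol receptor that also dimerises with RXRα and controls sterol export and lipogenesis.

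Each level below is an intensity as the authors deposited it, in arbitrary linear units, given for each array. Each difference is shTRPV4 minus shGFP in quantile-normalized log2(intensity + 16), a scale on which changes of dim probe sets come out too small. Differences were tested with limma, a linear model fitted over all 22626 probe sets, and called at a Benjamini-Hochberg adjusted p under 0.05. With 2 arrays per group, the number of arrays limits the precision. Across the table, array medians were 129.4 to 144.0, and Pearson's r over probe sets was 0.996 within shTRPV4, 0.995 within shGFP, and 0.986 to 0.987 across groups. The target itself did not read lower: the only Trpv4 probe set (1417545_at) had intensities of 80.1 and 79.5 in arrays labelled shTRPV4, against 43.7 and 93.8 in arrays labelled shGFP, and the groups overlapped (log2 difference 0.32, 95% interval −0.55 to 1.19, limma adjusted p = 0.55). Since the arrays do not show the knockdown, shTRPV4 and shGFP below mean the arrays that carry these labels, and every direction is between labels.

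Of the 18 probe sets, 6 rose in the arrays labelled shTRPV4 and 0 fell, with 12 not past the threshold. Over all probe sets, 4.54% rose and 5.36% fell, or 1027 against 1213. That split depends on scaling, with 600 against 1161 for the values as deposited and 1662 against 1141 with median centring. The 6 belong to 5 genes: Klf15, Ebf2 (2 of its 3 probe sets), Cebpa, Nr1h3 and Pparg. The other 5 genes, Rxra, Cebpb, Cebpd, Klf5 and Ebf1, had 0 probe sets past the threshold. Some of these calls turn on the settings: with median centring, an offset of 64, a filter at the 25th percentile of level or an intensity trend, 8 probe sets rose, the 6 joined by Ebf1 1416301_a_at and Ebf2 1449101_at. Of Cebpb and Klf5, 2 to 3 probe sets fell in the last 3 of these. In those 3 settings the calls over all probe sets grew as well, to 2084 to 2170 higher and 1975 to 1986 lower. At an unadjusted p under 0.05, which is also where the 95% interval excludes 0, 8 probe sets lay above and 4 below, where 16.3% of all probe sets lay above and 14.3% below. On the normalized scale the 2 groups did not overlap for 14 of the 18, with shTRPV4 above in 10 and below in 4, where all probe sets give 31.3% above and 27.2% below. The median difference over the 18 was 0.14, against 0.02 over all probe sets. A difference of at least 1 was seen in 3 of the 18 (1 of Klf15 and 2 of Ebf2), against 0.641% of all probe sets. Counted by gene on the brightest probe set, 5 of 10 rose and 0 fell (median 0.31), where over all 12393 genes 5.33% rose and 6.00% fell (median 0.02).

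The cultures expressed the defining markers of the labelled cell type, the fully differentiated adipocyte. Adipoq, which encodes adiponectin, read 13294 and 14169 in shTRPV4, against 11785 and 11816 in shGFP, and the summed intensity of the 8 adipocyte markers measured, of 10 listed, was 59593 to 62001 in shTRPV4, against 52788 to 54025 in shGFP. Of these 8, Retn and Slc2a4 rose, Lep fell and 5 did not pass (median 0.05). Lep, which encodes leptin, read 3.93 and 4.92 in shTRPV4, below the offset, against 68.3 and 43.9 in shGFP (−1.77, limma adjusted p = 0.027).

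Markers of preadipocytes and fibroblasts fell or did not pass, whereas the called members rose. Of 20 listed, 18 were measured, of which 9 fell and 0 rose (median −0.47), and their summed intensity was 98753 to 102205 in shTRPV4, against 114009 to 118593 in shGFP. The secreted Wnt modulator gene Sfrp2 (−2.35), the proteoglycan genes Lum (−2.28) and Dcn (−1.68) and the precursor receptor gene Pdgfra (−1.25) had the largest differences. Of 15 macrophage markers, 14 lay under the median level of all probe sets. Lyz2 (−1.89), Cd14 (−0.96) and Csf1r (−0.85) fell, Cd68 (1.49) rose and 11 did not pass (median 0.07), and the summed intensity was 734.8 to 781 in shTRPV4, against 1062 to 1182 in shGFP. Csf1r did not pass as the mean of its 3 probe sets (−0.35, limma adjusted p = 0.078). Without detection calls, these intensities do not show that macrophages were present in this cell line. The part of either list in the members' differences was not tested. In RNA from whole cultures, fewer cells of a type and less RNA per cell cannot be told apart.

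**Figure D1:**
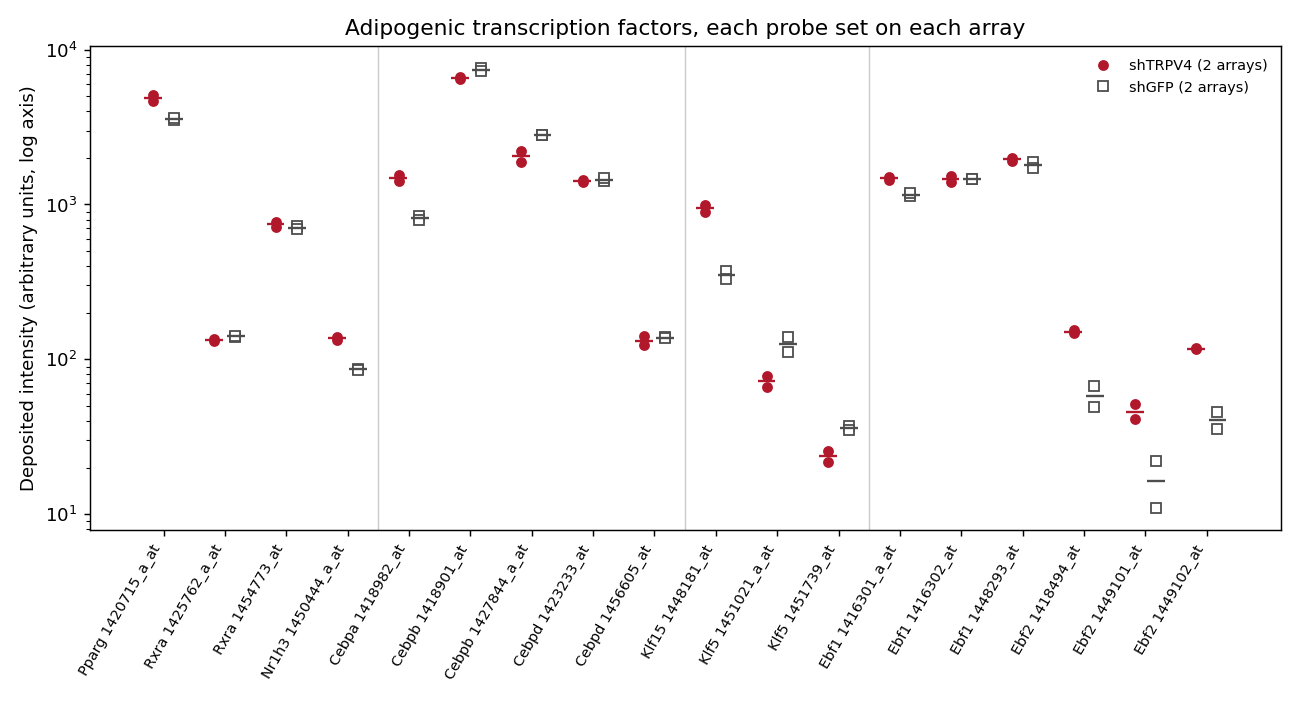
Deposited intensity (log axis, arbitrary units) of each of the 18 probe sets on each array, with shTRPV4 as filled circles and shGFP as open squares and a short line at each group's mean (n = 2 arrays each). The shTRPV4 arrays lie clear above the shGFP arrays for Klf15 (898 to 995 against 329 to 370) and all 3 Ebf2 probe sets, and below them for both Klf5 and both Cebpb probe sets.

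The stretches of DNA just before the annotated starts of Pparg, Cebpa and Klf15 are shown because these genes rose and their products are tied to each other in the differentiation programme. Each is the 250 bases before a start site, 5′ to 3′ on the gene's strand, from RefSeq's promoter table for GRCm38.p6, which had entries for 7 of the 10 genes (Pparg, Rxra, Nr1h3, Cebpa, Cebpb, Klf15 and Ebf1). Capitals mark matches on either strand to 3 short motifs: TTGNNNAA, a C/EBP core, AGGTCA, the nuclear receptor core, and GGGTGG, a Krüppel-like box. Of the 3 start sites of Pparg, the most downstream is shown. Nr1h3 also rose, and its windows are not printed. At least 1 match to the C/EBP core was in 33.3% of all 32851 windows of this length in the table. The nuclear receptor core was in 14.0% of these windows and the Krüppel-like box in 28.1%. A palindromic EBF motif, in 0.779% of them, was also searched, and no printed window holds it.

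Pparg (chr6:115421816-115422065, plus strand): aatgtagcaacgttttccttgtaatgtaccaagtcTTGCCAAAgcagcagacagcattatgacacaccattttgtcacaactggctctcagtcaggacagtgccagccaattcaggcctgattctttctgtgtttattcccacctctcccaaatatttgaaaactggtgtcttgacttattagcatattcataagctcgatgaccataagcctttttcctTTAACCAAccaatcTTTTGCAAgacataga
Cebpa (chr7:35119043-35119292, plus strand): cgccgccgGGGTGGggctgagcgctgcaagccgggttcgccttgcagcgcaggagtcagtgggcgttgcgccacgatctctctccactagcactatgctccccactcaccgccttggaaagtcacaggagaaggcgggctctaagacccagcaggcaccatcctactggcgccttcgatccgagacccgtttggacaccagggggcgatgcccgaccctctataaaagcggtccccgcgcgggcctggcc
Klf15 (chr6:90462326-90462575, plus strand): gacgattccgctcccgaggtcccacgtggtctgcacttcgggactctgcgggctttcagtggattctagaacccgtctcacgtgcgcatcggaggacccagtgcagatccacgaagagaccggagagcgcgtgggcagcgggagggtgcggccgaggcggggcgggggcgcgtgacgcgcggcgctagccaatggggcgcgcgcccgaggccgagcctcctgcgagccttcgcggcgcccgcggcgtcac

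The Pparg window holds 3 matches to the C/EBP core, TTGCCAAA at 215 to 208 bases before the start, TTAACCAA at 30 to 23 and TTTTGCAA at 16 to 9. The windows at the other 2 Pparg starts hold 0, and each has 1 match to the nuclear receptor core. The most upstream of them also has 1 Krüppel-like box, at 160 to 155 bases before its start. The Cebpa window holds 1 Krüppel-like box, at 242 to 237 bases before the start. The Klf15 window has no match to any of these motifs in these letters. Of the 2 Nr1h3 windows, 1 holds 1 Krüppel-like box, at 49 to 44 bases before its start, and the other has no match. No 2 matches share a base in the printed windows. These matches describe the sequence and were not tied to the array values.

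Among the nuclear receptors, Pparg and Nr1h3 rose and Rxra did not pass on either probe set. Pparg, the master regulator of fat cell differentiation, was read by 1 probe set (1420715_a_at), with intensities of 4662 and 5123 in shTRPV4, against 3501 and 3637 in shGFP. Both shTRPV4 arrays stood above both shGFP arrays, with a wider gap between the replicates in shTRPV4. The log2 difference was 0.45 (SE 0.07, 95% interval 0.26 to 0.64, limma adjusted p = 0.042), a 1.37-fold rise on that scale. Its call was lost with the values as deposited, where the difference was 0.45 and the adjusted p from limma 0.062.

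Nr1h3, which encodes LXRα, had intensities of 140.2 and 133 in shTRPV4, against 87.3 and 85.3 in shGFP (1450444_a_at). The groups were clear of each other and the replicates close within each. The log2 difference was 0.66 (SE 0.08, interval 0.45 to 0.87, limma adjusted p = 0.028), or 1.58-fold. This probe set lay under the median level of all probe sets, and its size moved with the offset, from 0.75 with an offset of 1 to 0.48 with 64.

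Rxra, the dimer partner of both receptors, had 2 probe sets. The brighter (1454773_at) read 716 and 775 in shTRPV4, against 722 and 690.1 in shGFP. The groups overlapped as deposited and were just clear of each other once normalized, with a log2 difference of 0.12 (interval −0.11 to 0.35, limma adjusted p = 0.40). The dimmer (1425762_a_at) read 131 and 136 in shTRPV4, against 140.4 and 141 in shGFP. There the deposited values were lower in both shTRPV4 arrays, while the normalized difference was 0.02 (−0.16 to 0.20, limma adjusted p = 0.86). Its sign is set by the scaling, since it was −0.07 with the values as deposited. On both probe sets the upper bound of the interval lies under the 0.45 measured for Pparg. The interval of Pparg itself (0.26 to 0.64) overlaps that of 1454773_at, and the difference between the genes was not tested.

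Of the 3 C/EBP factors, Cebpa rose, while the differences of Cebpb were negative and those of Cebpd near 0. Cebpa, the late C/EBP that works alongside PPARγ, read 1427 and 1542 in shTRPV4, against 844 and 790.0 in shGFP (1418982_at). The shTRPV4 arrays were far above the shGFP arrays compared with the gap within either group. The log2 difference was 0.88 (SE 0.09, interval 0.63 to 1.14, limma adjusted p = 0.024), or 1.85-fold. It passed in 6 of the 8 other settings that used all 4 arrays, with differences from 0.85 to 0.95. The call was lost with an offset of 1 and with a block for replicate number (limma adjusted p = 0.054 and 0.080). The level filters, the intensity trend and the block leave the difference itself unchanged and alter only its test.

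Cebpb, an early inducer of both Pparg and Cebpa, was lower in both shTRPV4 arrays than in either shGFP array on each of its 2 probe sets, and neither passed. The brighter, 1418901_at, read 6618 and 6427 in shTRPV4, against 7567 and 7231 in shGFP, a difference of −0.24 (SE 0.07, interval −0.45 to −0.03, limma adjusted p = 0.13). The other, 1427844_a_at, read 1882 and 2221 in shTRPV4, against 2826 and 2793 in shGFP, a difference of −0.43 (SE 0.09, interval −0.70 to −0.17, limma adjusted p = 0.071). Over the 8 other settings it passed in 4 and 1418901_at in 2. The mean of the 2 probe sets differed by −0.34 (SE 0.07, limma adjusted p = 0.054). The interval of Cebpa lies above 0 and those of both Cebpb probe sets below it. The difference between the genes was not tested.

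Cebpd, the other early C/EBP, did not separate the groups. Its brighter probe set (1423233_at) read 1403 and 1432 in shTRPV4, against 1412 and 1481 in shGFP, a log2 difference of 0.00076 with an interval from −0.17 to 0.17 (limma adjusted p = 0.999). The dimmer (1456605_at) read 123 and 141 in shTRPV4, against 140.1 and 137 in shGFP (0.03, −0.20 to 0.26, limma adjusted p = 0.84). Both signs turned with the values as deposited (−0.03 and −0.06), so no direction can be given for Cebpd. The wider of its intervals leaves room for a difference on the log2 scale anywhere between −0.20 and 0.26.

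Of the 2 Krüppel-like factors, Klf15 rose and Klf5 had negative differences that did not pass. Klf15, a late factor that also drives genes of glucose and amino acid handling, had intensities of 995 and 898 in shTRPV4, against 370.4 and 329 in shGFP (1448181_at). Both shTRPV4 arrays stood far above both shGFP arrays, with similar gaps between the replicates of each group. The log2 difference of 1.44 (SE 0.13, interval 1.08 to 1.79, limma adjusted p = 0.020), or 2.71-fold, was the largest of the 18, and it placed Klf15 at the 99.8th percentile of differences over all probe sets. The difference was 1.33 to 1.49 over the same 8 settings, not all of which can change it. It passed in 6 and missed with an offset of 1 and with the block (limma adjusted p = 0.0501 and 0.0748).

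Klf5, an early factor downstream of C/EBPβ and C/EBPδ, was lower in both shTRPV4 arrays on each of its 2 dim probe sets, and neither passed. The brighter, 1451021_a_at, read 78.5 and 66.3 in shTRPV4, against 112 and 139 in shGFP (−0.59, SE 0.13, interval −0.95 to −0.24, limma adjusted p = 0.071). The other, 1451739_at, read 25.8 and 21.8 in shTRPV4, against 37.4 and 35.1 in shGFP (−0.36, SE 0.08, interval −0.58 to −0.14, limma adjusted p = 0.071). With the 2 probe sets averaged, an alternative added for the members after the data were seen, Klf5 passed (−0.48, SE 0.09, limma adjusted p = 0.047). It was then the only member to fall, beside 5 that rose, in a fit of 12393 genes in which 6.45% rose and 6.49% fell.

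Of the EBF factors, Ebf2 rose and Ebf1 had positive differences that did not pass. Ebf2, which marks brown and beige precursors and opens their chromatin, had 3 probe sets, all under the median level of all probe sets and all higher in both shTRPV4 arrays. Probe set 1449102_at read 116 and 118 in shTRPV4, against 35.5 and 46.0 in shGFP, a log2 difference of 1.31 (SE 0.11, interval 0.998 to 1.63, limma adjusted p = 0.020). Probe set 1418494_at read 148 and 154 in shTRPV4, against 67.2 and 49.0 in shGFP, a difference of 1.25 (SE 0.15, interval 0.83 to 1.67, limma adjusted p = 0.030). The dimmest, 1449101_at, read 41.0 and 51.2 in shTRPV4, against 22.1 and 11.01 in shGFP, a difference of 0.99 (SE 0.21, interval 0.39 to 1.59) that did not pass (limma adjusted p = 0.072).

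All 3 Ebf2 probe sets thus lay between the 99.3th and 99.7th percentile of differences. With dim shGFP readings, the lowest of them under the offset of 16, the sizes depend on that offset. They ran from 1.46 to 1.60 with an offset of 1 and from 0.47 to 0.87 with an offset of 64. Averaged, the 3 gave 1.18 (SE 0.10, limma adjusted p = 0.014).

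Ebf1, its paralogue and a promoter of fat cell formation, had 3 brighter probe sets that did not give the same answer. On 1416301_a_at it read 1510 and 1450 in shTRPV4, against 1127 and 1178 in shGFP, with the groups clear of each other (0.38, SE 0.07, interval 0.18 to 0.59, limma adjusted p = 0.060). That probe set passed in 5 of the 8 other settings. On 1448293_at it read 2006 and 1918 in shTRPV4, against 1869 and 1724 in shGFP (0.16, interval −0.11 to 0.43, limma adjusted p = 0.35). On 1416302_at it read 1398 and 1534 in shTRPV4, against 1468 and 1460 in shGFP, with the groups overlapping (0.03, interval −0.17 to 0.23, limma adjusted p = 0.83). Their mean differed by 0.19 (limma adjusted p = 0.14). The upper bound of each Ebf1 interval lies under the differences measured on the 2 Ebf2 probe sets that passed. The interval of the third Ebf2 probe set, 1449101_at (0.39 to 1.59), overlaps that of Ebf1 1416301_a_at. The difference between the genes was not tested.

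**Figure D2:**
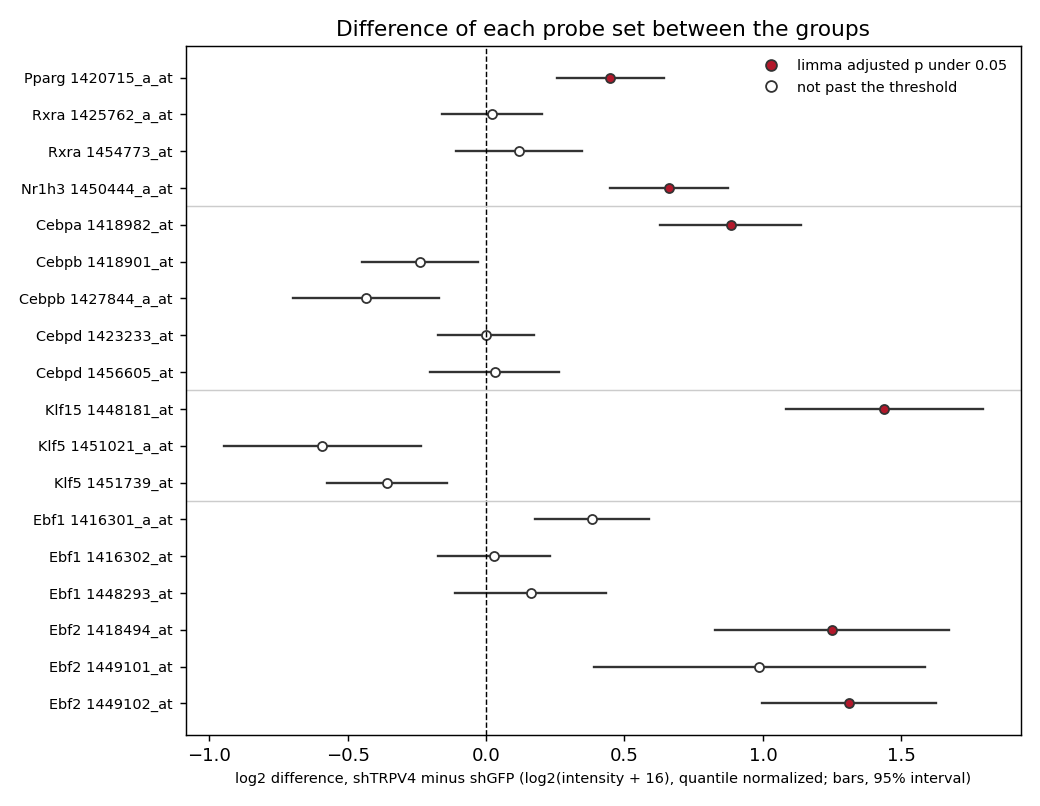
Log2 difference (shTRPV4 minus shGFP, log2(intensity + 16) after quantile normalization) of each probe set with its 95% interval from limma (2 arrays per group), grouped by nuclear receptors, C/EBP, Krüppel-like and EBF factors. Filled points passed an adjusted p of 0.05: Pparg, Nr1h3, Cebpa, Klf15 and 2 of Ebf2, with Klf15 the highest at 1.44.

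The genes that PPARγ and C/EBPα are known to switch on moved in both directions. Of 26 such genes listed, 19 had a single-gene probe set (the brightest was used for each gene) and the other 7 were not analysed here. Of the 19, 6 rose and 2 fell, and the median difference was 0.32. Beside this list and those below, 5.33% of all genes rose and 6.00% fell. Retn, which encodes the adipokine resistin, rose most, with 5273 and 5225 in shTRPV4, against 1496 and 1314 in shGFP (1.90, SE 0.11, limma adjusted p = 0.015).

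The glycerol channel gene Aqp7 (1.20), the insulin-responsive glucose transporter gene Slc2a4 (1.16) and the lipid droplet coat gene Plin4 (0.53) rose as well. The other 2 risen genes were the triglyceride synthesis enzymes Dgat1 and Dgat2. The 2 that fell were Pck1, the enzyme of glyceroneogenesis, with 30.3 and 20.3 in shTRPV4, against 211 and 148 in shGFP (−2.18, SE 0.24, limma adjusted p = 0.026), and Angptl4, an inhibitor of lipoprotein lipase (−0.54, limma adjusted p = 0.042). As deposited, the values no longer called Dgat1, Dgat2 and Angptl4. Averaging a gene's 2 probe sets brought Aqp7 to 0.50 and Pck1 to −1.18, both still past the threshold. The 2 Aqp7 probe sets disagreed, so its rise rests on 1418849_x_at. The other, 1418848_at, read 75.8 and 101 in shTRPV4, against 118 and 102 in shGFP (−0.20, limma adjusted p = 0.47). The classical PPARγ targets Lpl (−0.05), Cd36 (0.10), Cidec (−0.14) and Adipoq (0.16) did not pass, with limma adjusted p from 0.20 to 0.69. Fabp4, the fatty acid-binding protein, is the brightest probe set and its difference is fixed at 0 by quantile normalization; it read 19142 and 19625 in shTRPV4, against 18222 and 18099 in shGFP, higher as deposited in both shTRPV4 arrays. Its other 3 probe sets had differences of 0.46, 0.38 and 0.04, and none passed (limma adjusted p from 0.057 to 0.77). Without Fabp4 the median was 0.34 over the targets and 0.10 over the adipocyte markers.

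Known targets of LXRα, the product of Nr1h3, were likewise mixed. All 14 listed had a probe set, of which 4 rose and 1 fell (median 0.22). The 4 were Mylip, a ligase that degrades the LDL receptor (0.96), the fatty acid synthase gene Fasn (0.66), the phospholipid remodelling enzyme gene Lpcat3 (0.65) and the peroxisomal transporter gene Abcd2 (0.60; limma adjusted p = 0.066 with the values as deposited). The 1 that fell, the lipocalin gene Apod (−0.65), read 7.95 and 10.0 in shTRPV4, against 24.6 and 22.9 in shGFP, around the offset. The sterol exporter genes Abca1 (5333 and 5372 in shTRPV4, against 5967 and 5806 in shGFP, −0.17) and Abcg1 (−0.04) did not pass.

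Of 19 other factors known to promote fat cell formation, 18 were measured, of which 4 rose and 0 fell (median 0.27). They were the Wnt pathway repressor gene Tcf7l1 (0.63), the nuclear factor I genes Nfib (0.61) and Nfia (0.52), and Nr3c1, the glucocorticoid receptor, with 2605 and 2707 in shTRPV4, against 1791 and 1816 in shGFP (0.58, SE 0.06, limma adjusted p = 0.026). Averaged over its 3 probe sets, Nfia was at 0.34 and still passed. Egr2, not past on its brightest probe set (−0.90, limma adjusted p = 0.10), fell on its other (−0.50, limma adjusted p = 0.034). Of 24 factors known to restrain fat cell formation, 23 were measured, of which 3 fell and 2 rose (median 0.20). Klf2, which represses Pparg, read 271 and 276 in shTRPV4, against 540 and 629 in shGFP (−0.99, SE 0.08, limma adjusted p = 0.019). The zinc finger gene Zfp521, an antagonist of EBF proteins, fell by 0.96 and Klf7 by 0.56. The nuclear receptor gene Nr2f1 (0.69) and the C/EBP inhibitor gene Ddit3 (0.66) rose. Tcf7l2 and Foxo1, not past on their brightest probe sets, each rose on another. These were 1425229_a_at of Tcf7l2 (0.71, limma adjusted p = 0.037) and the dim 1456529_at of Foxo1 (0.65, limma adjusted p = 0.035). The calls for Klf7 and Nr2f1 were lost with the values as deposited.

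Among 10 paralogues of the members, 6 were measured (Rxrb, Rxrg, Ppara, Ppard, Ebf3 and Cebpg), of which 0 rose and 1 fell (median 0.12). That was Cebpg on its brightest probe set (−0.52, limma adjusted p = 0.045). Its other 2 probe sets read positive differences of 0.39 and 0.12 that did not pass, and the mean of all 3 was −0.0028 (limma adjusted p = 0.99), so no direction is given for Cebpg. Of 16 coregulators, 13 were measured, of which 3 rose and 2 fell (median 0.22). The coactivator gene Ppargc1b (1.15), the corepressor gene Nrip1 (1.04) and the steroid receptor coactivator gene Ncoa1 (0.61) rose. Ppargc1a, the paralogue of Ppargc1b, did not pass on its brightest probe set (0.27, limma adjusted p = 0.48), although 3 of its 5 probe sets rose, with differences of 0.81, 1.23 and 1.24. The mean over its probe sets was 0.76 (SE 0.07, limma adjusted p = 0.015). All its probe sets were dim, the 3 that rose reading 12.4 to 19.6 in shGFP, around the offset. Nrip1 read 2400.2 and 2514 in shTRPV4, against 1216 and 1191 in shGFP. Med1, the Mediator subunit that docks PPARγ, fell by 0.73 and the corepressor gene Tle3 by 0.40 on their brightest probe sets, and neither gene passed as the mean of its probe sets (−0.24 for each, limma adjusted p = 0.29 and 0.14).

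**Figure D3:**
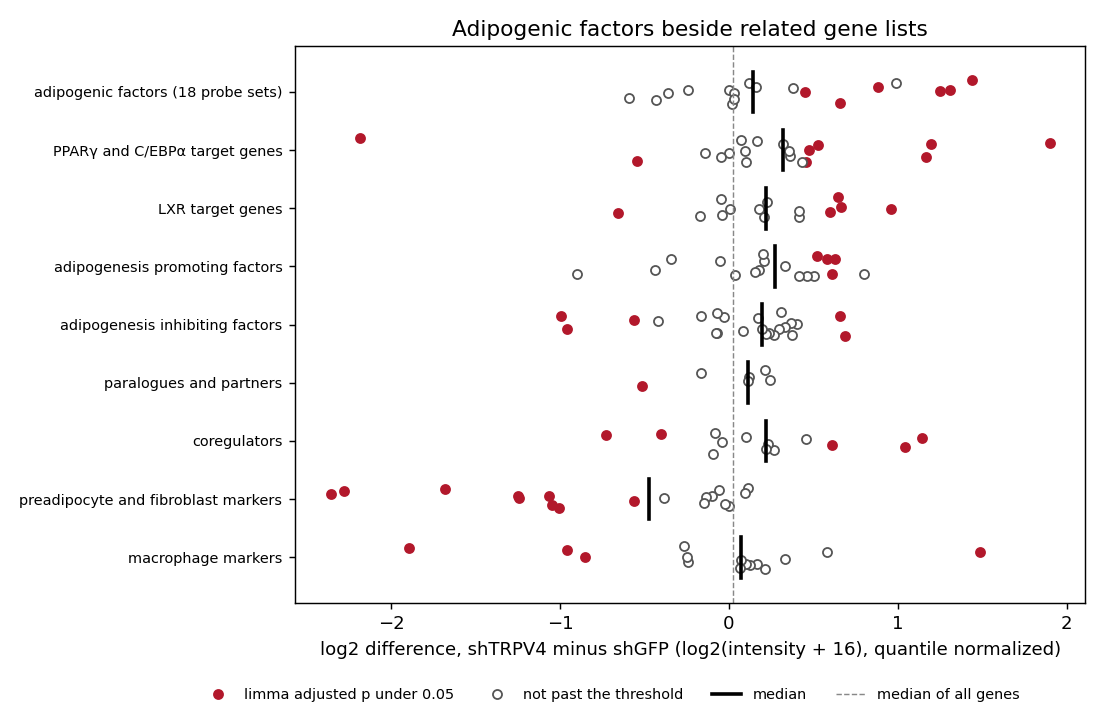
Log2 differences (shTRPV4 minus shGFP, quantile normalized log2(intensity + 16)) of the 18 member probe sets and of the measured genes of 8 lists, each point a probe set, filled where limma's adjusted p was under 0.05, with a line at each list's median and a dashed line at the median of all genes. The points of the members and of the PPARγ and C/EBPα targets spread to both sides of 0, while the 9 preadipocyte and fibroblast markers past the threshold all lie to the left.

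In the fits without 1 of the arrays, and in the fit that takes replicate numbers as a block, limma called 0 of the 18 probe sets and 0 of all 22626, with 1 residual degree of freedom. At an unadjusted p under 0.05 these fits held 7 to 8 of the 18 higher and 1 to 4 lower, and 2236 to 3616 of all probe sets higher and 2263 to 3242 lower. The 6 called probe sets kept positive differences in each of these fits, Klf15 from 1.32 to 1.55, Cebpa from 0.80 to 0.97, Nr1h3 from 0.61 to 0.71 and Pparg from 0.41 to 0.49. Their sign could not turn here, since both shTRPV4 arrays lay above both shGFP arrays and the block leaves the difference unchanged. With an offset of 1 in place of 16, all 6 missed the threshold narrowly (limma adjusted p from 0.0501 to 0.0747).

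**Figure D4:**
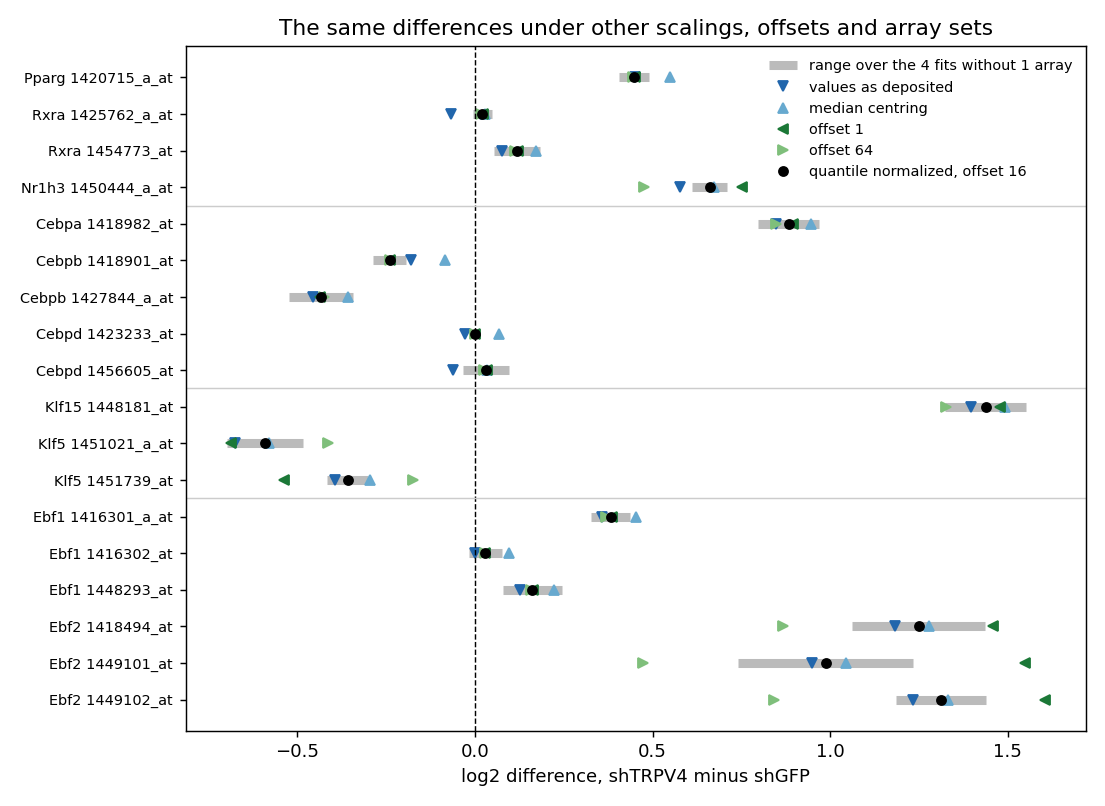
Log2 difference (shTRPV4 minus shGFP) of each probe set as reported (black), with the values as deposited, with median centring and with offsets of 1 and 64 (coloured triangles), and its range over the 4 fits without 1 array (grey bars). Klf15, Cebpa, Nr1h3, Pparg and Ebf2 stay to the right of 0 in each setting drawn, while Cebpd and the dimmer Rxra probe set cross it. The grey bar of Ebf1 1416302_at crosses it too. For Klf15, Cebpa, Nr1h3, Pparg and Ebf2, only median centring could have crossed 0, since their groups do not overlap as deposited or normalized.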

How the data were processed

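Per the labels' protocols, total RNA was made into biotin-labelled cRNA, and 4 Affymetrix arrays were hybridised. The authors deposited 1 linear intensity per probe set and array. How they summarised, background-corrected and scaled the arrays is not given in the sources used here. Without detection calls, the level that stands above background is unknown. On the log2(intensity + 16) scale the array medians spanned 0.14, over a limit of 0.1, and the arrays were therefore brought to common quantiles. This fixes the value of the brightest and dimmest ranks. Differences (shTRPV4 minus shGFP) were fitted over all 22626 probe sets in R 4.3.3 with limma 3.58.1 (functions lmFit and eBayes, no trend, no block, 2 residual and 1.80 prior degrees of freedom), with Benjamini-Hochberg adjustment and a threshold of 0.05. The fit was run on simulated data with a common spread for all probe sets, which checks the computation and not the calls made here.

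Gene names come from the platform annotation, where 20380 probe sets carry 1 symbol, 691 several and 1555 none here. A probe set ID ending in _a_at, as 6 of the 18 do, reads several transcripts of its gene. In the gene lists the probe set with the highest mean over all 4 arrays stood for a gene. The members and lists were chosen with earlier results of these data known. All member probe sets are named, and in each list up to 4 genes past the threshold per direction with the largest differences, the adipocyte markers and Trpv4. Genes named outside this rule were chosen after their values were seen. Alternatives were other scalings, offsets of 1 and 64, filters on dim probe sets, an intensity trend, a replicate block, averaged probe sets and each array left out. The replicate numbers are not stated to pair samples.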

Additional observations from a re-analysis of the deposited data

How the results depend on the processing

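The 6 member probe sets called higher kept a positive difference under every alternative that could be fitted to them. Only median centring could have turned that sign. Both shTRPV4 arrays lay above both shGFP arrays, as deposited and as normalized. An offset does not change the ranks that set the normalized values. The block, the level filters and the intensity trend leave the difference unchanged. The calls of these 6 depended on the offset and on the number of arrays. Klf15, Cebpa, Nr1h3 and both Ebf2 probe sets passed with the values as deposited, where Pparg did not, and all 6 passed with median centring. With the values as deposited, 600 of all probe sets were higher, 1 adipogenesis inhibiting factor was higher, 1 PPARγ and C/EBPα target was lower, and 3 members turned sign, Rxra 1425762_a_at (−0.0680), Cebpd 1423233_at (−0.0283) and Cebpd 1456605_at (−0.0619). With median centring, 1662 of all probe sets and 7 promoting factors were higher and 1 target was lower. With an offset of 1, 0 members were higher (limma, 0.0501 to 0.0747 for the adjusted p of the 6), as were 180 of all probe sets, with 426 lower. The counts were then 0 higher among promoting factors, 0 higher and 1 lower among inhibiting factors, 0 lower among paralogues, 1 lower among coregulators, 1 higher and 0 lower among targets, 0 and 0 among LXR targets and 0 and 0 among macrophage markers. With an offset of 64, 2 members were lower, 2130 of all probe sets were higher and 1986 lower, 7 promoting factors were higher and 1 lower, and 5 inhibiting factors were higher.

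A filter on mean level at the 25th percentile gave 3 members lower, 2084 of all higher and 1975 lower, 7 promoting factors higher and 1 lower, 5 inhibiting factors higher and 0 LXR targets lower. At the 50th percentile, which removes 7 of the 18 members, 2 members were lower, 2642 of all higher and 2232 lower, 8 promoting factors higher and 1 lower, 7 inhibiting factors higher, 1 paralogue higher, 10 targets higher and 1 lower, 0 LXR targets lower, and 0 macrophage markers higher and 1 lower. An intensity trend gave 2 members lower, 2170 of all higher and 1980 lower, 9 promoting factors higher and 1 lower, and 5 inhibiting factors higher. With a gene's probe sets averaged, 1 member gene was lower (Klf5), with 799 of all genes higher and 804 lower, 2 promoting factors were lower, 4 inhibiting factors were higher, and 0 paralogues and 0 coregulators were lower.

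The groups share replicate numbers, and the deviations of same-numbered arrays correlated at 0.12 over probe sets. With only 2 pairs and no label that ties them, the arrays share only a number. With the replicate number as a block, every count among the members, all probe sets and the lists was 0 (limma, 1 residual degree of freedom), and the adjusted p of the 6 called members was 0.0748 to 0.0895. Without any 1 array every count was also 0, on 1 residual degree of freedom, and 4 members turned sign. Over those fits Rxra 1425762_a_at ran from −0.00578 to 0.0472, Cebpd 1423233_at from −0.00975 to 0.0113, Cebpd 1456605_at from −0.0324 to 0.0953 and Ebf1 1416302_at from −0.0175 to 0.0747. At an unadjusted p under 0.05, the block fit and the fits without an array held 2236 to 3616 of all probe sets higher and 2263 to 3242 lower. No detection calls were used, so what signal over background limits among the dim members (Klf5, Ebf2, Nr1h3 and 1 Cebpd probe set) is unknown.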

Other observations

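The probe sets of Med1, Klf7 and Nrip1, chosen after their values were seen, can be set side by side. Of the 6 Med1 probe sets, 2 fell, 1448708_at (340.2 and 335 in shTRPV4, against 568 and 613 in shGFP) and 1421907_at (261 and 262 in shTRPV4, against 463 and 485 in shGFP, log2 difference −0.76, limma adjusted p = 0.019). The other 4, with no intensity above 66.7 on any array, had differences from −0.35 to 0.30 and did not pass. The 4 Klf7 probe sets all had negative differences, from −0.75 to −0.53, and 2 of them passed. Both Nrip1 probe sets rose, by 1.04 and 1.32.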
